A study of Homo sapiens with 12 samples.

Results

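The p53 pathway is held in check by a small set of proteins, and 5 genes of that circuit are described here in neuroblastoma cells in which the nuclear exporter XPO1 was inhibited or depleted. They are TP73, which encodes the p53 relative p73, and MDM2, MDM4, PPM1D and RCHY1, which encode proteins that restrain p53. The 5 genes were chosen by symbol, and each has 1 row in both deposited tables, so all 5 of 5 were found among the 18987 genes that the tables share. The gene of p53 itself is not one of them. IMR5 is an established neuroblastoma line with amplified MYCN. In the drug experiment, 3 libraries came from cells kept in medium with 100 nM selinexor, which blocks XPO1, for 24 h, and 3 from cells kept with the solvent DMSO, for which the labels give no duration. In the knockdown experiment, 3 libraries came from cells nucleofected with siRNA number 10 against XPO1 and 3 from cells given control siRNA, all harvested at 72 h. The knockdown therefore rests on 1 siRNA sequence, and drug and siRNA differ in time and in delivery as well as in the way XPO1 was lost. The labels do not tell whether replicates were grown separately, and p-values therefore speak of the spread among these libraries, possibly a technical one.

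p53 is a transcription factor that is switched on by DNA damage and other stress and drives genes of cell cycle arrest and cell death. MDM2 is a RING ubiquitin ligase that covers the activation domain of p53 and marks it for degradation, and because p53 in turn transcribes MDM2, the pair forms a negative feedback loop. MDM4 is a close relative of MDM2 with little ligase activity of its own, which binds the same part of p53 and works in a complex with MDM2. PPM1D, also called WIP1, is a phosphatase that removes stress-induced phosphates from p53 and from its upstream kinases and is itself a p53 target. RCHY1, also called PIRH2, is another RING ubiquitin ligase that acts on p53. TP73 makes full-length forms that can activate p53 targets and, from an internal start, shortened forms that oppose them. It lies on the short arm of chromosome 1, a stretch often lost in neuroblastoma. XPO1 carries p53 and many other proteins out of the nucleus.

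The start-site sequences of MDM2 and TP73 are shown, the only genes of the 5 with a match to the motifs marked below. Each has an upstream start and at least 1 internal start. RCHY1 also has windows at more than 1 start, which hold no marked motif and are not printed. The deposited values, 1 per gene, sum over all starts of a gene. TP73 has a further internal window, which is not printed. RefSeq (GRCh38.p14) gave 13 windows for the 5 genes, from 250 bases before to 50 bases after an annotated start, and all 5 genes were matched. Below, the 250 bases before the start are printed, 5′ to 3′ on the gene's strand. Capitals mark matches to TTTGGCGC (read on the opposite strand as GCGCCAAA), a form of the E2F binding motif, or to the p53 consensus, a pair of adjoining decamers with up to 3 mismatches allowed outside its C and G core. Both strands were searched, and no marked match overlaps another.
MDM2 upstream start, chr12:68807922-68808171, plus strand: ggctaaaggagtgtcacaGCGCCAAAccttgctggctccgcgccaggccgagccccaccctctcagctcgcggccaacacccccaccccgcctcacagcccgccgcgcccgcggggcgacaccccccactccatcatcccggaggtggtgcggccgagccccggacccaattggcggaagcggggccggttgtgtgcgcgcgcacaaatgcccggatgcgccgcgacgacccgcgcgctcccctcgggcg
MDM2 internal start, chr12:68808767-68809016, plus strand: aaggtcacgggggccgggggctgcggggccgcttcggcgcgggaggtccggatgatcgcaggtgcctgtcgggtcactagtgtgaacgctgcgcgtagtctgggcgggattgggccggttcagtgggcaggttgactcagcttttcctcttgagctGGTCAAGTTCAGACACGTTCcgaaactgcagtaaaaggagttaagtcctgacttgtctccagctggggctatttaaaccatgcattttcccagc
TP73 upstream start, chr1:3652266-3652515, plus strand: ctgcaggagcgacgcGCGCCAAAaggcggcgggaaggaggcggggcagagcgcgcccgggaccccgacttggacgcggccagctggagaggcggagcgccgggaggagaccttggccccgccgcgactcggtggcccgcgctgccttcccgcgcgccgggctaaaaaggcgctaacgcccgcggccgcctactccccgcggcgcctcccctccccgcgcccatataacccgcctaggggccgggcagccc
TP73 internal start, chr1:3690422-3690671, plus strand: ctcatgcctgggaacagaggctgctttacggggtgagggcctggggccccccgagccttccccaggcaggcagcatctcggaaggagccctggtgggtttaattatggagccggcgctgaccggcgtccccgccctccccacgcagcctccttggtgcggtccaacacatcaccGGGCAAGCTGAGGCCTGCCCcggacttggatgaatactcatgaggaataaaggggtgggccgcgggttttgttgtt

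In the printed windows, all of which hold a match, the 2 genes show the same arrangement. Each upstream window holds TTTGGCGC, beginning 232 bases before the start in MDM2 and 235 bases before it in TP73. Each printed internal window holds a 20-base match to the p53 consensus with 2 mismatches. It begins 94 bases before the start in MDM2 and 76 bases before it in TP73. Of 35116 RefSeq windows of this length, 0.652% held TTTGGCGC and 1.12% held the p53 consensus. Second copies of both MDM2 windows, shifted by a few bases, held the same matches. The remaining TP73 window, at an internal start farther downstream (chr1:3697796-3698095), held neither motif. None of the windows of MDM4, PPM1D or RCHY1 held either motif. None of the 13 held TTTCCCGC, another E2F form (1.63% of all windows). These are matches of letters and not measured binding.

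Depth, estimated from the steps between low values, was 39.5 to 40.9 M reads (M, mega) per DMSO library, 26.8 to 33.8 M with selinexor, 40.6 to 54.0 M with control siRNA and 33.5 to 55.8 M with XPO1 siRNA. The targeted gene XPO1 read 18568, 18950 and 18908 with control siRNA and 4260, 4377 and 4397 with XPO1 siRNA. With DMSO it read 17886, 18899 and 18357, and with selinexor 15544, 22513 and 21165. Selinexor replicate 1 was the shallowest library and stood apart, with log2 correlations of 0.974 and 0.977 to the other selinexor libraries, which correlated at 0.991. RN7SL1 and RN7SL2, abundant noncoding RNAs, took 9.40% to 9.72% of the deposited total with DMSO and 12.6% to 15.96% with selinexor. They took 12.6% to 13.1% with control siRNA and 10.8% to 12.4% with XPO1 siRNA. This share moved with treatment, upward with selinexor and downward with XPO1 siRNA, and its part in the results was not tested. Of 10 neuroblastoma identity markers, 9 averaged from 849 (DBH) to 30287 (MYCN) with DMSO, while the catecholamine enzyme gene TH was at 5.41 with control siRNA and 5.50 with XPO1 siRNA and has no row in the drug table. Of 16 markers of leukocytes, endothelium, fibroblasts and Schwann cells, 8 had no row in the drug table and 9 none in the knockdown table, PTPRC, PECAM1 and VWF in neither. The summed level of the 8 left in the drug table was 804 to 908 with DMSO and 833 to 1834 with selinexor. That of the 7 left in the knockdown table was 1130 to 1376 with control siRNA and 1084 to 1107 with XPO1 siRNA, and COL1A1 was the highest in each group.

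The first question was which of the 5 genes moved with selinexor. MDM2 and PPM1D rose, TP73 and MDM4 fell, and RCHY1 did not pass the test. All 5 genes passed the filter on low values, with 146 or more estimated reads in every library. So 4 of 5 were called by limma at a Benjamini-Hochberg adjusted p under 0.05, beside 49.2% of 18128 genes tested (22.9% higher, 26.3% lower), and for the same 4 selinexor and DMSO values were fully separate, beside 61.7% of genes (28.8% higher, 32.9% lower). The median log2 fold change of the 5 was -0.39, the value of RCHY1, which did not pass, against -0.0076 over all genes. All values are the authors' normalized read counts. Each fold change was taken after adding 1 and going to the log2 scale, which slightly understates changes of low genes.

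MDM2 (hg19 chromosome 12, 69201956 to 69239215, plus strand) read 7606, 7617 and 7587 with DMSO and 24039, 34494 and 33529 with selinexor. Every selinexor library was far above every DMSO library, and replicate 1 was the lowest of the 3. The means were 7604 ± 15.3 and 30688 ± 5778 (SD, n = 3), a 3.98-fold rise, or 1.99 in log2 (limma SE 0.135, adjusted p = 1.21e-05). Of all genes tested, 390 (2.15%) rose more. Without selinexor replicate 1 the log2 fold change was 2.16.

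PPM1D (chromosome 17, 58677544 to 58741850, plus strand) read 2337, 2422 and 2398 with DMSO and 6491, 7569 and 7049 with selinexor, so the groups were well apart and replicate 1 was again the lowest. From 2386 ± 43.8 to 7036 ± 539 (SD, n = 3), the rise was 2.94-fold, or 1.56 in log2 (limma SE 0.0832, adjusted p = 3.88e-06). More of a rise was seen in 729 genes (4.02%).

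MDM4 (chromosome 1, 204485511 to 204542872, plus strand), the relative of MDM2, moved the other way. It read 5711, 5579 and 5815 with DMSO and 3295, 4031 and 4333 with selinexor. All 3 selinexor libraries lay below the DMSO libraries, with replicate 1 lowest. The mean went from 5702 ± 118 to 3886 ± 534 (SD, n = 3), a 1.48-fold fall, or -0.56 in log2 (limma SE 0.108, adjusted p = 0.00302). Without selinexor replicate 1 it was -0.45 (adjusted p = 3.39e-06, where the alternatives ranged from 3.39e-06 to 0.0183). With all libraries, 3072 genes (16.9%) fell more than MDM4.

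TP73 (chromosome 1, 3569084 to 3652766, plus strand) read 337, 336 and 323 with DMSO and 221, 197 and 159 with selinexor. The groups did not overlap, and here replicate 1 was the highest of the selinexor libraries. TP73 is the least abundant of the 5, and these values rest on at least 358 estimated reads with DMSO and 146 to 186 with selinexor. Its mean fell 1.74-fold, from 332 ± 7.42 to 192 ± 31.1 (SD, n = 3), or -0.80 in log2 (limma SE 0.136, adjusted p = 0.00166), and 9.57% of genes fell more. Gene-level values do not separate full-length from shortened p73 transcripts.

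RCHY1 (chromosome 4, 76404247 to 76439975, minus strand) read 842, 779 and 719 with DMSO and 403, 765 and 679 with selinexor. Replicates 2 and 3 lay within or just under the DMSO range, and replicate 1 alone was well below it. In log2 the difference was -0.39 (limma SE 0.216, adjusted p = 0.167), with a 95% interval of -0.88 to 0.11. Without selinexor replicate 1 it was -0.11 (adjusted p = 0.249, where the alternatives ranged from 0.0545 to 0.340).

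**Figure D1:**
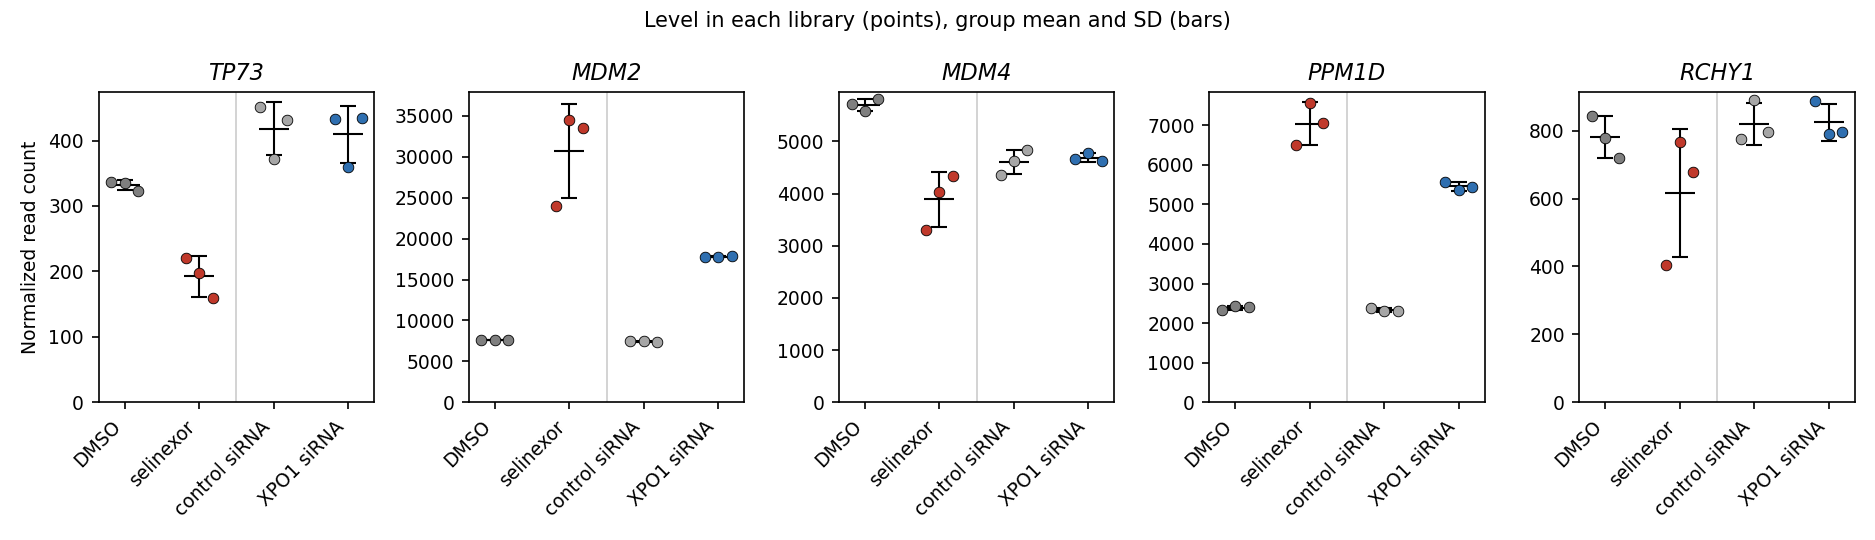
Normalized read count (y axis, from 0) of TP73, MDM2, MDM4, PPM1D and RCHY1 in each of the 12 libraries (points, by group on the x axis), with the group mean and SD as bars. A grey line separates the drug table from the knockdown table, which were normalized separately. MDM2 and PPM1D stand higher in every selinexor and XPO1 siRNA library than in its controls, while TP73 and MDM4 are lower with selinexor and overlap their controls with XPO1 siRNA.

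The knockdown comparison asked the same of loss of the XPO1 transcript, which fell 4.33-fold (-2.11 in log2, limma SE 0.0311, adjusted p = 2.91e-14). MDM2 and PPM1D rose again, and TP73, MDM4 and RCHY1 did not pass the test. That is 2 of 5 called, beside 54.5% of 17616 genes tested (25.9% higher, 28.6% lower). With libraries rescaled to equal totals, 62.4% of all calls were higher in place of 47.5%. XPO1 siRNA and control values were fully separate for the same 2, beside 60.4% of genes (29.2% higher, 31.2% lower). The median of the 5 was 0.027, the value of MDM4, against 0.0024 over all genes.

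MDM2 read 7488, 7433 and 7317 with control siRNA and 17719, 17805 and 17838 with XPO1 siRNA. The replicates of each group lay close together and the groups were far apart. The means were 7413 ± 86.9 and 17787 ± 61.6 (SD, n = 3), a 2.40-fold rise, or 1.26 in log2 (limma SE 0.0299, adjusted p = 1.99e-12), and 323 genes (1.83%) rose more.

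PPM1D read 2388, 2309 and 2296 with control siRNA and 5567, 5360 and 5439 with XPO1 siRNA, again with no overlap. From 2331 ± 49.7 to 5455 ± 105 (SD, n = 3), it rose 2.34-fold, or 1.23 in log2 (limma SE 0.0354, adjusted p = 1.14e-11). In this comparison 346 genes (1.96%) rose more.

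MDM4 read 4364, 4622 and 4833 with control siRNA and 4654, 4786 and 4625 with XPO1 siRNA, the second range lying inside the first. Its change in log2 was 0.027 (limma SE 0.0403, adjusted p = 0.605), with a 95% interval of -0.060 to 0.11. With libraries rescaled to equal totals it was 0.12 and passed the test (adjusted p = 0.0195, where the alternatives ranged from 0.0195 to 0.863). TP73 read 451, 372 and 431 with control siRNA and 433, 360 and 435 with XPO1 siRNA, so both groups spanned nearly the same values. Its log2 fold change was -0.032, with a 95% interval of -0.23 to 0.17 (limma adjusted p = 0.795). RCHY1 read 775, 889 and 795 against 886, 790 and 796, a log2 fold change of 0.0081 with a 95% interval of -0.13 to 0.15 (limma adjusted p = 0.930). For these 3 genes the intervals leave room for small changes in either direction.

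The drug and knockdown effects were then compared directly, each effect being formed within its own table and all 12 libraries fitted together. The difference passed for 4 of 5 genes, beside 31.8% of 17332 genes tested (11.6% higher with selinexor, 20.2% lower). The rise of MDM2 was larger with selinexor by 0.73 on the log2 scale (SE 0.146, limma adjusted p = 0.00214) and that of PPM1D by 0.33 (SE 0.0848, adjusted p = 0.0100). The effect on MDM4 was lower with selinexor, by -0.59 (SE 0.119, adjusted p = 0.00230), and so was that on TP73, by -0.77 (SE 0.173, adjusted p = 0.00478). For RCHY1 the difference was -0.40 (SE 0.249, adjusted p = 0.243) and -0.12 without selinexor replicate 1. The median difference over all genes was -0.068. Drug or siRNA, 24 h or 72 h and nucleofection or none cannot be told apart in this difference. The limma fit took 1 spread per gene for all 4 groups. For each of the 5 genes the log2 values ranged most widely with selinexor, and these p-values do not allow for unequal spread.

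**Figure D2:**
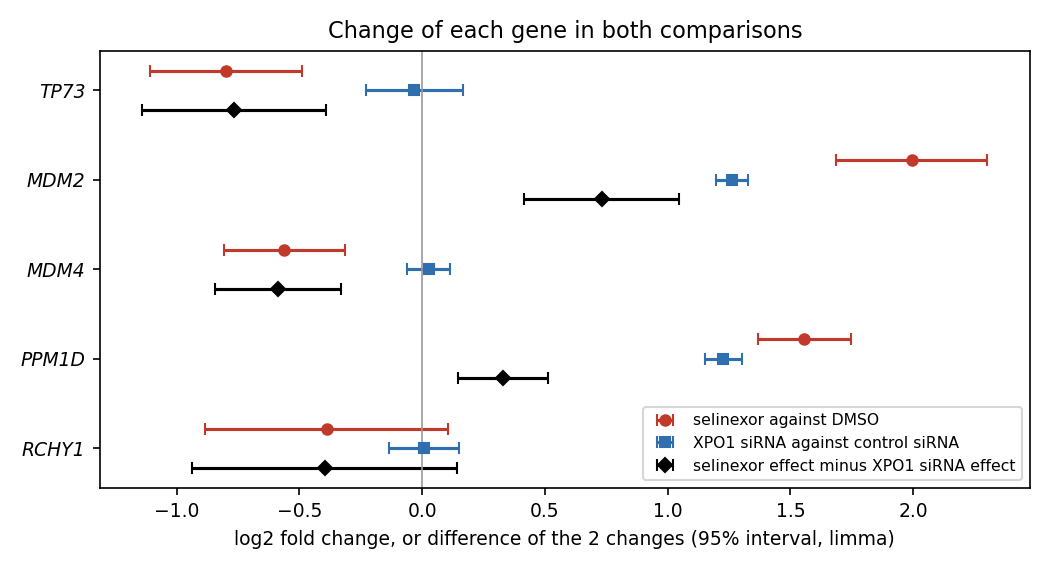
Log2 fold change with its 95% interval (x axis) for each gene (rows) with selinexor (circles) and XPO1 siRNA (squares), and the difference between the 2 (diamonds), all from limma. The intervals of MDM2 and PPM1D lie above 0 in all 3 estimates, those of MDM4 and TP73 lie below 0 with selinexor and include 0 with XPO1 siRNA, and those of RCHY1 include 0 throughout.

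Because MDM2 and MDM4 work as a pair, their ratio was taken within each library, where the scaling of libraries cancels. The ratio of MDM2 to MDM4 counts was 1.33, 1.37 and 1.30 with DMSO and 7.30, 8.56 and 7.74 with selinexor. It was 1.72, 1.61 and 1.51 with control siRNA and 3.81, 3.72 and 3.86 with XPO1 siRNA. Neither pair of groups overlapped, and the ratio was highest with selinexor in all 3 libraries. The mean log2 ratio moved from 0.42 ± 0.033 to 2.97 ± 0.12 with selinexor, a 5.88-fold shift, and from 0.69 ± 0.090 to 1.92 ± 0.026 with XPO1 siRNA, a 2.36-fold shift (SD, n = 3). The exact two-sided permutation test gave p = 0.1 for each, the smallest value that 3 against 3 allows. With selinexor the shift combined the rise of MDM2 and the fall of MDM4, and with XPO1 siRNA it came from MDM2, since the values of MDM4 overlapped.

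**Figure D3:**
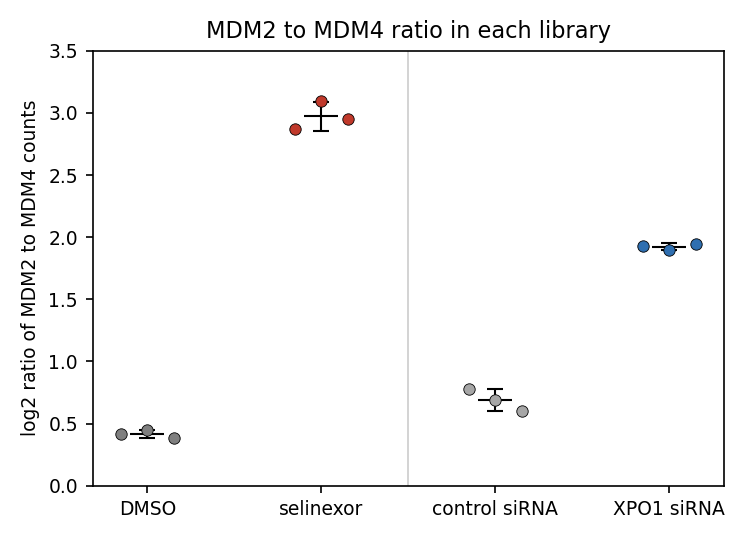
Log2 ratio of MDM2 to MDM4 normalized counts (y axis) in each library (points), by group (x axis), with group mean and SD as bars. The selinexor libraries lie at 2.87, 3.10 and 2.95 and the XPO1 siRNA libraries at 1.93, 1.90 and 1.95, all above their controls.

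The order of the 5 genes by level also shifted. Per kilobase of merged exons in GENCODE 29, the mean level with DMSO was 572 for MDM2, 518 for MDM4, 473 for PPM1D, 119 for RCHY1 and 49.1 for TP73. In none of the 4 groups did the libraries of neighbours in the order overlap. With selinexor MDM2 stood at 2310, PPM1D at 1395, MDM4 at 353, RCHY1 at 93.8 and TP73 at 28.4, so the phosphatase gene had moved above MDM4. With control siRNA the levels were 558 for MDM2, 462 for PPM1D, 418 for MDM4, 125 for RCHY1 and 61.8 for TP73, and XPO1 siRNA kept that order (1339, 1082, 426, 126 and 60.5). Merged exons count every annotated isoform, which understates the level of genes with many alternative exons. The order of PPM1D and MDM4 depends on this division by length. In undivided counts MDM4 stood above PPM1D with DMSO (5702 and 2386) and with control siRNA (4606 and 2331). PPM1D stood above MDM4 with selinexor (7036 and 3886) and also with XPO1 siRNA (5455 and 4688).

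Some reads could have been shared with overlapping genes. The 3′ end of MDM2 overlaps CPM, a carboxypeptidase gene on the opposite strand, and holds the short transcript RP11-611O2.3 on its own strand; both were chosen by position. CPM read 8.60, 14.1 and 9.04 with DMSO and 99.6, 164 and 152 with selinexor, a rise of 3.59 in log2 (limma SE 0.276, adjusted p = 2.47e-05). With knockdown it read 19.0, 18.1 and 14.5 against 28.3, 21.8 and 27.4, with no overlap, and did not pass the test (limma adjusted p = 0.0898). RP11-611O2.3 read 15.2, 0.667 and 22.7 with DMSO and 811, 43.9 and 195 with selinexor, and 12.7, 0.582 and 3.24 with control siRNA and 14.8, 13.6 and 114 with XPO1 siRNA. It varied widely between replicates and passed as higher in both comparisons (limma adjusted p = 0.0138 and 0.0111). MDM4 overlaps RP11-430C7.2, which passed in neither (adjusted p = 0.215 and 0.629). The libraries were made with a kit that keeps strand, but no source used here tells whether counting used it, so reads of MDM2 and CPM cannot be told apart with certainty. RP11-611O2.3 lies within MDM2 on the same strand, so strand could not separate their reads, and its values may hold reads of MDM2. CPM and RP11-611O2.3 stayed far below the level of MDM2 in every library. At its ends TP73 overlaps WRAP73 and the antisense gene TP73-AS1. TP73-AS1 gave a log2 fold change of -0.092 with selinexor (limma adjusted p = 0.512), where TP73 fell, and rose by 0.27 with XPO1 siRNA (adjusted p = 0.00227), where TP73 did not pass. WRAP73 fell by 0.32 and 0.27 on the log2 scale (adjusted p = 0.0267 and 0.00813). THAP6, which overlaps the start of RCHY1 on the other strand, passed in neither comparison (adjusted p = 0.648 and 0.337).

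Patterns like those of the 2 rising genes were sought among 11548 other genes with a mean of 100 or more, by the root mean square difference of log2 values, less the control mean, over the 12 libraries. Nearest to MDM2 were FAM212B (0.14), TOB1, which encodes an antiproliferative protein (0.14), and RRM2B, a p53-inducible ribonucleotide reductase subunit (0.15). FAM212B rose 4.22-fold with selinexor and 2.28-fold with XPO1 siRNA, TOB1 4.46-fold and 2.73-fold, and RRM2B 4.13-fold and 2.81-fold. PPM1D was the 17th nearest to MDM2 (0.23). Nearest to PPM1D were the ETS factor gene ETV5 (0.059), the neuronal RNA-binding protein gene CELF3 (0.083) and the imprinted gene MEST (0.087), with rises of 2.81-fold, 2.87-fold and 2.83-fold with selinexor and of 2.43-fold, 2.22-fold and 2.32-fold with XPO1 siRNA.

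Around these 5 genes, 8 lists of the p53 circuit were counted, beside 22.9% of all genes called higher and 26.3% called lower with selinexor, and 25.9% and 28.6% with XPO1 siRNA. The lists were chosen with earlier results of these data known, so their shares are descriptions and not tests. In bulk RNA, fewer cells that express a gene and less RNA per cell cannot be told apart. Among 30 tested p53 targets other than MDM2 and PPM1D, 28 (93.3%) rose and none fell with selinexor, and 27 (90.0%) rose and 2 (6.67%) fell with XPO1 siRNA, with median log2 fold changes of 2.26 and 1.40. CDKN1A, the gene of the cell cycle inhibitor p21, rose by 5.43 and 4.50 on the log2 scale, PHLDA3, an AKT inhibitor gene, by 3.51 and 2.33, and TP53INP1, a stress-response gene, by 3.35 and 2.19. MDM2 rose less than 18 of the 30 with selinexor and less than 16 with XPO1 siRNA, and PPM1D less than 19 and 16. The rise was larger with selinexor for 16 of the 30 targets and smaller for none by the limma test of the difference, beside 11.6% of all genes higher and 20.2% lower in that test.

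Of 19 other ubiquitin ligases reported to act on p53, 6 (31.6%) rose and 5 (26.3%) fell with selinexor, beside 22.9% and 26.3% of all genes. With XPO1 siRNA 8 (42.1%) rose and 4 (21.1%) fell, beside 25.9% and 28.6%. CUL7, a cullin scaffold gene, rose 1.89-fold and 1.21-fold, and MKRN1 1.53-fold and 1.38-fold. The list's medians were -0.071 and 0.11. Among 12 deubiquitinases, none rose and 4 (33.3%) fell with selinexor (median -0.052), and 3 (25.0%) rose and 1 (8.33%) fell with XPO1 siRNA (median 0.026). USP7, which stabilises both MDM2 and p53, fell 1.38-fold with selinexor, from 5746 ± 61.2 to 4153 ± 88.7, and stood at 5095 ± 189 and 4951 ± 37.4 (SD, n = 3) with control and XPO1 siRNA (limma adjusted p = 9.07e-04 and 0.358). USP5 fell 1.47-fold and 1.25-fold, and ATXN3 rose 1.41-fold with XPO1 siRNA and gave 0.055 in log2 with selinexor (limma adjusted p = 0.776), a difference between effects that did not pass (adjusted p = 0.0618).

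Of 21 genes whose products bind MDM2, 3 (14.3%) rose and 6 (28.6%) fell with selinexor, and 6 (28.6%) rose and 6 (28.6%) fell with XPO1 siRNA, with medians of -0.053 and 0.018. Over all genes the shares were 22.9% and 26.3% with selinexor and 25.9% and 28.6% with XPO1 siRNA. RPS27L, a ribosomal protein relative that is itself a p53 target, rose 4.92-fold and 4.66-fold, and PML, the nuclear body scaffold gene, 2.05-fold and 1.40-fold. MTBP, which encodes an MDM2-binding protein with a role in replication, fell 2.59-fold and 1.33-fold. DAXX fell 1.82-fold with selinexor and stood at 3909 ± 233 and 3800 ± 97.5 (SD, n = 3) in the knockdown experiment (adjusted p = 0.476). None of 17 kinases of p53, MDM2 or MDM4 rose with selinexor and 6 (35.3%) fell (median -0.24), while 8 (47.1%) rose and 7 (41.2%) fell with XPO1 siRNA (median -0.044). The checkpoint kinase genes CHEK1 and CHEK2 fell 2.86-fold and 2.60-fold with selinexor and 1.32-fold and 1.42-fold with XPO1 siRNA, PRKDC 1.74-fold and 1.25-fold, and MAPK9 1.40-fold and 1.43-fold.

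A list of 16 genes held acetylation and methylation enzymes of p53 and the reader gene L3MBTL1. Of these, 4 (25.0%) rose and 7 (43.8%) fell with selinexor (median -0.15), beside 22.9% and 26.3% of all genes. With XPO1 siRNA 5 (31.2%) rose and 5 (31.2%) fell (median 0.044), beside 25.9% and 28.6%. The acetyltransferase gene KAT2B rose 2.88-fold and 1.95-fold, the methyl-lysine reader gene L3MBTL1 2.41-fold and 1.66-fold, and the arginine methyltransferase gene PRMT5 fell 1.36-fold and 1.20-fold. Of 10 regulators or partners of p73, 2 rose and 6 fell with selinexor (median -0.30). With XPO1 siRNA 2 rose and 4 fell (median -0.12). E2F1, an activator of TP73 transcription, fell 3.35-fold with selinexor, from 4712 ± 216 to 1413 ± 192, and 1.34-fold with XPO1 siRNA, from 6312 ± 261 to 4723 ± 191 (SD, n = 3). Its fall was larger with selinexor (difference -1.33, limma adjusted p = 4.23e-06). YAP1, a p73 coactivator gene, fell 2.96-fold and 1.90-fold. TP63, the remaining family gene, has no row in either deposited table. In the PPM phosphatase family, of 16 genes other than PPM1D, 3 (18.8%) rose and 6 (37.5%) fell with selinexor and none rose and 6 (37.5%) fell with XPO1 siRNA (medians -0.055 and -0.042). PPM1G fell 1.95-fold and 1.35-fold and PHLPP1 1.86-fold and 1.40-fold, and PPM1H fell 1.57-fold with XPO1 siRNA and gave -0.12 in log2 with selinexor (limma adjusted p = 0.382). The medians of all tested genes were -0.0076 and 0.0024.

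**Figure D4:**
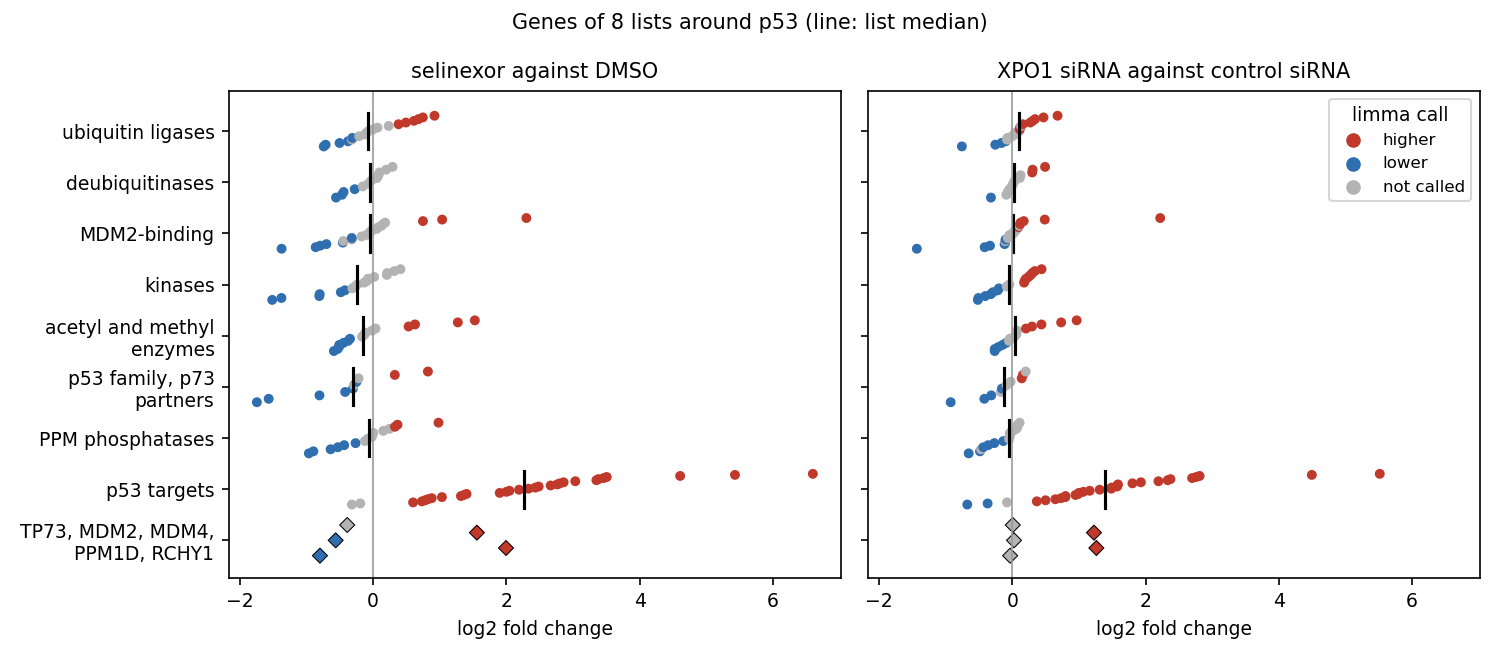
Log2 fold change (x axis) of each tested gene (points) of 8 lists around p53 (rows), with the list median as a line, for selinexor (left) and XPO1 siRNA (right). Red and blue mark genes called higher and lower by limma, grey those not called, and diamonds in the bottom row are, from bottom to top, TP73, MDM2, MDM4, PPM1D and RCHY1. The p53 targets lie to the right, with medians of 2.26 and 1.40, while the medians of the other lists lie between -0.30 and 0.11.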

How the data were processed

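Strand-keeping total RNA libraries of IMR5 cells were analysed in 4 groups of 3, grouped by their titles, which also number the replicates. The submitters' processing notes name STAR 2.7.3a, Partek, DESeq2 and hg19. Annotation and counting options, strand included, are not given in the sources used. What the authors deposited is a normalized signal: counts of a gene over the library's size factor, scaled separately in the drug table (20029 genes) and the knockdown table (19610 genes), where 25 date-like symbols were restored from coordinates. A further 3 columns, named for another XPO1 siRNA, matched no sample and were not used. Only 61.9% to 66.7% of low values (0.3 to 60) fell on a whole multiple of a library's step, to within 0.02, so whole reads were not recovered and no count model was fitted; estimated reads are values divided by that step.

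For genes whose mean was at least 10, limma 3.58.1 (R 4.3.3; intensity trend, group as the only term, two-sided) was run on log2(value + 1), with Benjamini-Hochberg adjustment over all genes and a threshold of 0.05. The steps were tested on simulated data. Members and lists were chosen with earlier results of these data known. Besides the members and XPO1, the text names from each list up to 2 called genes with the smallest p per comparison, and the 3 genes nearest in pattern to each member called in both comparisons. A gene that this rule also names is not reported here. Python 3.11.15 with matplotlib 3.10.9, numpy 2.4.6 and pandas 2.3.3 did the rest.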

Additional observations from a re-analysis of the deposited data

How the results depend on the processing

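The alternatives changed the pseudocount (0.5 or 5, or none for the ratio), the filter (none, or a mean of at least 50), the scaling (equal totals or trimmed means), the intensity trend (none), the model (a replicate block) and the libraries (leaving out each in turn). Over these, the changes of the 5 genes took 240 alternative values, of which 232 kept direction and side of the threshold. The other 8 concern TP73, MDM4 and RCHY1 near 0 with XPO1 siRNA. The log2 ratio of MDM2 to MDM4 shifted by 2.49 to 2.61 with selinexor and 1.19 to 1.28 with XPO1 siRNA, and its exact p of 0.1 could not be lower. Counts over all genes moved more: equal totals gave 6057 higher and 3647 lower with XPO1 siRNA. With equal totals TP73 was 0.059 in place of -0.032 and MDM4 0.12 in place of 0.027, the latter past the threshold. Leaving out each replicate gave -0.11 to 0.058 for TP73, -0.012 to 0.062 for MDM4 and -0.045 to 0.068 for RCHY1. The cause was not tested. The labels do not say whether equal replicate numbers pair the samples. Same-numbered libraries deviated together with correlations of 0.0088, 0.12 and -0.042 in the drug table and -0.031, -0.020 and -0.10 in the knockdown table. These few correlations were weak and cannot settle whether samples were paired. The replicate block gave 3991 genes higher and 4680 lower with selinexor, 4439 and 4882 with XPO1 siRNA, and 1801 and 3272 for the difference, in place of 4146 and 4774, 4561 and 5042, and 2014 and 3505, and changed no call of the 5 genes. TP73 rests on the fewest reads of the 5. Its limma SE was the largest of the 5 with XPO1 siRNA (0.0923). With selinexor and in the difference the SE of RCHY1 was the largest (0.216 and 0.249).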

Other observations

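The nearest named genes beside the 5 were looked at because of their position on hg19. Downstream of PPM1D, BCAS3, 12964 bases away and transcribed in the same direction, rose 1.59-fold with selinexor, from 665 ± 23.0 to 1055 ± 13.1, and 1.34-fold with XPO1 siRNA, from 729 ± 14.1 to 978 ± 59.1 (SD, n = 3; limma adjusted p = 2.90e-04 and 2.44e-05). Upstream of MDM2, SLC35E3, a solute carrier family gene 14447 bases away, fell 1.38-fold with selinexor and rose 1.10-fold with XPO1 siRNA (adjusted p = 0.00837 and 0.0461). Beside MDM4, PIK3C2B, a phosphoinositide kinase gene, passed in neither comparison (adjusted p = 0.474 and 0.801), and LRRN2 rose 1.55-fold with selinexor and fell 1.22-fold with XPO1 siRNA (adjusted p = 0.00307 and 0.00443). Near TP73, TPRG1L rose 1.82-fold and 1.65-fold, opposite to the fall of TP73 with selinexor, and LRRC47 gave log2 fold changes of -0.12 (adjusted p = 0.381) and 0.19 (adjusted p = 0.00272). Farther off, CPSF6 after MDM2 fell 1.29-fold with selinexor and rose 1.12-fold with XPO1 siRNA (adjusted p = 0.0421 and 5.98e-04), and PARM1 beside RCHY1 rose 2.56-fold and 1.84-fold (adjusted p = 4.49e-05 and 2.51e-05). CDKL2, on the other side of RCHY1, rose 2.22-fold with selinexor and did not pass with XPO1 siRNA (adjusted p = 0.00217 and 0.480).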
